A study of Mus musculus with 6 samples.

Results

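The genes described here supply amino acids to the cell, join them to tRNA, or report on that supply. They were chosen as 33 named genes, of 23283 gene symbols in the deposited tables, and the RNA level of each was summed over its transcripts in every library. Among them, 6 encode amino acid transporters, 8 encode synthesis enzymes, 6 encode stress and growth regulators and 13 encode cytosolic tRNA synthetases. The RNA came from eosinophils of the lamina propria, the connective tissue layer under the epithelium, of the small bowel of BALB/c mice, which were wild type. One group of 3 cultures, GM-CSF(+), received the cytokine GM-CSF at 10 ng/ml for 4 hours, and the other group of 3 cultures, GM-CSF(-), was not treated. The strain and tissue were the same in both groups, and the labels give no age, no sex and no method of isolation. No source used here says whether each culture had its own donor mice, so the p-values below reflect only the spread from culture to culture, which may be technical.

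Cells take up amino acids through membrane transporters, make some of them from glucose and glutamine carbon, and load each onto its tRNA with a dedicated synthetase. When an amino acid runs short, uncharged tRNA activates the kinase Gcn2, which slows translation in general but raises translation of the transcription factor Atf4. Atf4 pairs with C/EBP family proteins and binds C/EBP-ATF response elements in the promoters of many transporter, synthesis and synthetase genes. The kinase complex mTORC1, which senses amino acids and growth factors, also acts through Atf4. Eosinophils are granulocytes that live in the healthy small intestine, and GM-CSF prolongs their survival and activates them.

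Promoter sequences of 6 of the genes are shown first, because the C/EBP-ATF response element core ties this gene group together in the textbook account. They are from RefSeq (GRCm38.p6), read 5′ to 3′ on the gene's strand. Capitals mark the core TGATGNAA or its reverse complement TTNCATCA, except in the Aldh18a1 promoter, where they mark the STAT half-site pair TTCNNNGAA and the E-box CACGTG. The Eprs stretch holds none of these letters and is shown as a synthetase promoter without the core. The stretches are Chac1 at chr2:119351019-119351078 (plus strand), Asns at chr6:7693210-7693269 (minus strand), Aars at chr8:111033700-111033759 (plus strand), Tars at chr15:11399659-11399718 (minus strand), Eprs at chr1:185362984-185363043 (plus strand) and Aldh18a1 at chr19:40588464-40588643 (minus strand).
Chac1: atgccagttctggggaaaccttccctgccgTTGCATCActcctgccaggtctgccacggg
Asns: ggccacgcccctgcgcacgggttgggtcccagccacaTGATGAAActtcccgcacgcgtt
Aars: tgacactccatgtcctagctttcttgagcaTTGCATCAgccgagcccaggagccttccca
Tars: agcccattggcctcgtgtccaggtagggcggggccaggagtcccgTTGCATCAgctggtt
Eprs: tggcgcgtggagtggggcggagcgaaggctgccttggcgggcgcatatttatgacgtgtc
Aldh18a1: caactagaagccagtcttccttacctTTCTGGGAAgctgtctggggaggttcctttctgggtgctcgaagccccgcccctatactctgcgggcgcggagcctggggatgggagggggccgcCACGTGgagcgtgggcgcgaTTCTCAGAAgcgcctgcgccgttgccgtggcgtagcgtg

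The table of promoters held an entry for 24 of the 33 genes, and Slc7a5 and Slc1a5 were among those without one. On either strand of the 250 bases before the annotated start, the C/EBP-ATF core was found in 6 of the 24 (25%). Of all 27025 genes with a promoter there, 3.91% had it. The 6 were Aars, Tars, Asns, Gars, Chac1 and Pycr1, and the matches lay between 193 bases before the start in Chac1 and 15 in Tars. Both other words were searched the same way, the STAT half-site pair because GM-CSF signals through STAT5, and the E-box because Myc and related factors bind it. The half-site pair was found in 4 of 24 (16.7%), against 8.13% of all genes, and the E-box in 3 of 24 (12.5%), against 6.86%. The Aldh18a1 promoter held the half-site pair at 154 and 39 bases before the start and an E-box at 59 between them. No word overlapped another in any of these promoters. For Aars, Eprs and Slc7a1 the annotated gene also extends upstream of the start used. A match is a run of letters and was not tested as a binding site. Known Atf4 targets such as Asns were among the genes chosen, so the share with the core reflects that choice and is not a result.

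**Figure D1:**
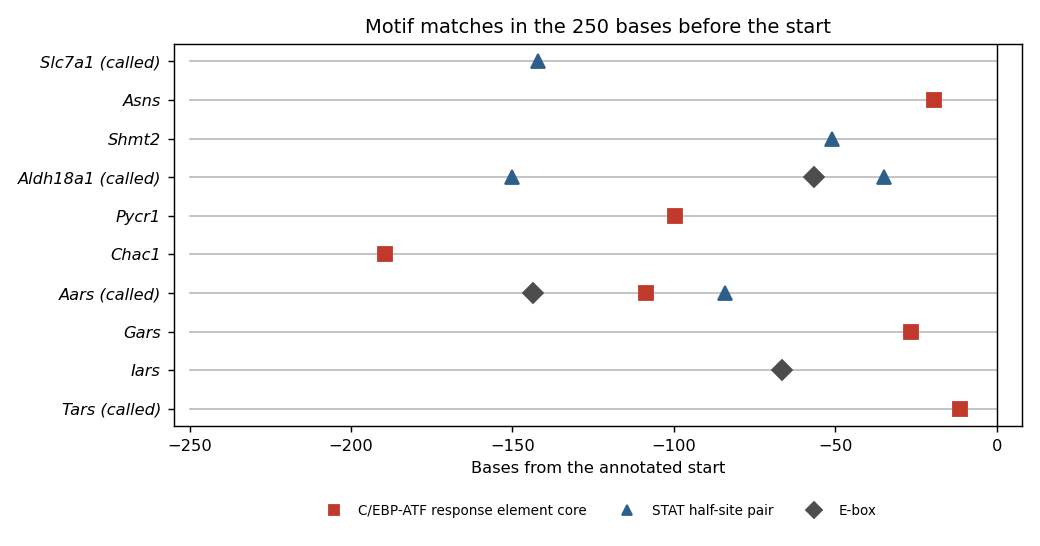
Positions of the matches in the 250 bases before the annotated start, for the 10 genes with at least 1 match; each symbol is the middle of a match, and genes whose RNA level passed the test are marked as called. The C/EBP-ATF core appears in 6 promoters, of which those of Aars and Tars belong to called genes. The called genes Slc7a5 and Slc1a5 had no promoter entry and were not searched.

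Levels are FPKM, that is, fragment numbers corrected for the length of the transcript and the size of the library, so they can be compared between genes. Differences are on the scale log2(FPKM + 1), GM-CSF(+) minus GM-CSF(-), which understates the change of low genes, and were tested with limma across 10106 genes with a threshold of 0.05 on the adjusted p. Of the 33 genes, 30 were tested, 8 were higher and 1 was lower in GM-CSF(+) cultures, and 21 did not pass. Across all genes tested, 7.68% were higher and 14.2% were lower, and the median difference was -0.05, against 0.08 over the 30. At an unadjusted p under 0.05, limma gave 10 of the 30 higher and 2 lower, against 11.2% and 23.2% of all genes. The groups did not overlap for 10 of the 30 in the higher direction and for 2 in the lower direction, against 13.2% and 26.0% of all genes. Slc1a4, Pycr1 and Chac1 averaged under 1 FPKM and were not tested. Phgdh passed this filter only through its level in GM-CSF(-) cultures. It is among the 2 lower genes in the unadjusted count and in the count without overlap. The 33 were chosen with earlier results of these data known, so the counts describe them and are not a test of the group.

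By role, 3 of 5 tested transporters were higher (median difference 0.23), as were 2 of 7 synthesis enzymes (0.02), 0 of 5 stress and growth regulators (0.02) and 3 of 13 tRNA synthetases (0.06). The 1 gene that was lower was a regulator, and at an unadjusted p under 0.05 limma gave 1 regulator higher and 1 lower. The 5 transporter differences ran between 0.10 and 0.51, all above 0. Those of the enzymes ran between -0.58 and 0.65, and 0.65 was the largest rise of the 30. The value of -0.58 belongs to Phgdh, which entered the test only through its GM-CSF(-) level. The next lowest enzyme was Psph at -0.29, which did not pass. The synthetases stayed between -0.14 and 0.39, and 10 of 13 were above 0. Summed FPKM of the synthesis enzymes was 47.4 to 51.7 in GM-CSF(+) and 39.5 to 43.3 in GM-CSF(-) cultures, without overlap. Summed synthetase FPKM was 247 to 266 in GM-CSF(+) and 228 to 245 in GM-CSF(-) cultures. These did not overlap either, but the nearest cultures were at 247.1 and 245.3 FPKM. Transporters summed to 828 to 849 in GM-CSF(+) and 691 to 817 in GM-CSF(-) cultures, without overlap and mostly from Slc3a2. Regulators summed to 112 to 120.1 in GM-CSF(+) and 109 to 114 in GM-CSF(-) cultures, and these ranges overlapped. How often the sums of other sets of genes separate was not tested.

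**Figure D2:**
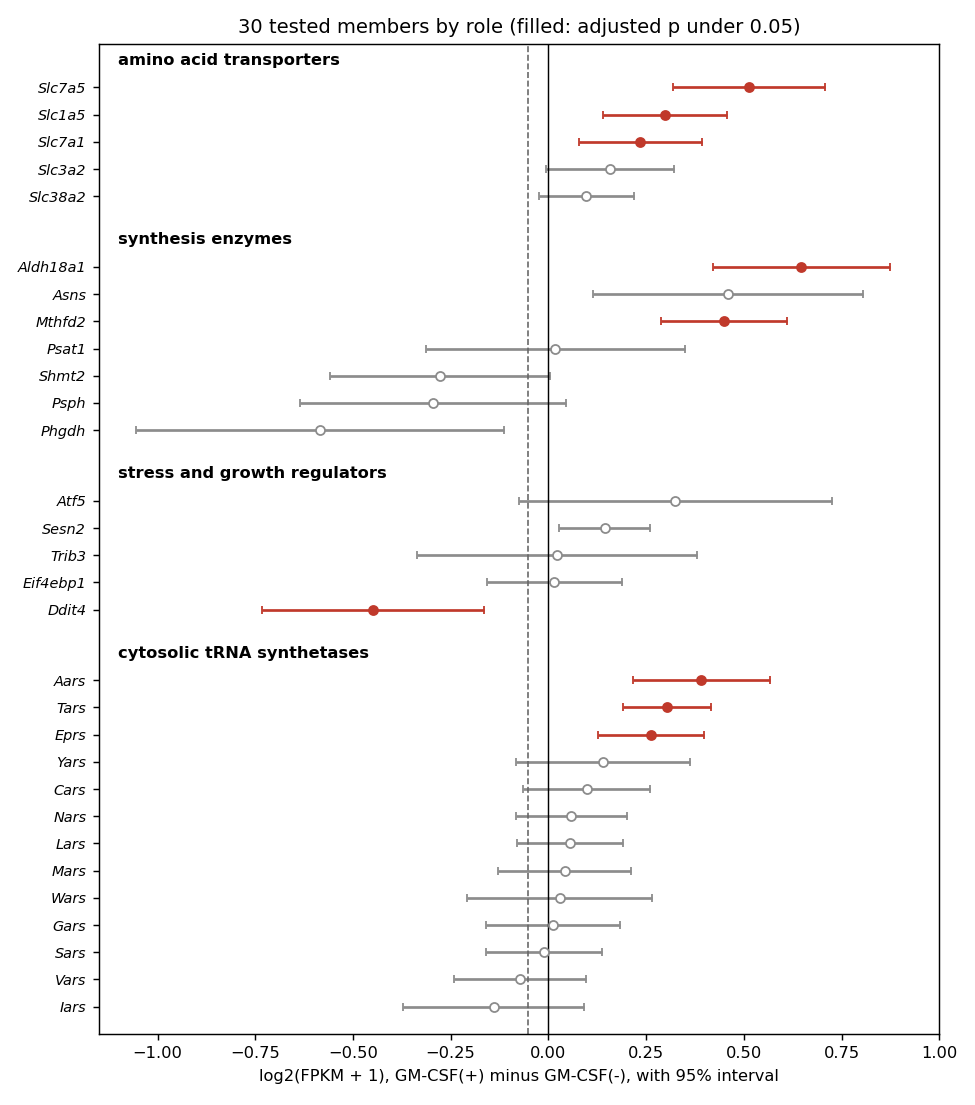
Difference in log2(FPKM + 1), GM-CSF(+) minus GM-CSF(-), for the 30 tested genes grouped by role, with 95% intervals; filled points passed the threshold and the dashed line is the median of all genes tested (-0.05). All 5 transporters lie above 0, the synthesis enzymes spread to both sides, and most synthetases lie close to 0.

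Among the transporters, Slc7a5 encodes LAT1, which brings leucine and other large neutral amino acids into the cell. It measured 15.5, 16.3 and 18.6 FPKM in GM-CSF(+) cultures, against 12.3, 11.0 and 11.1 FPKM in GM-CSF(-) cultures. Every treated culture was above every untreated one. The difference was 0.51 (SE 0.08, limma adjusted p = 0.00566, n = 3 each), a ratio of mean FPKM of 1.47, and it passed in 15 of 15 alternative settings.

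Slc1a5, or ASCT2, carries glutamine and other small neutral amino acids. Its level was 16.0, 15.3 and 16.5 FPKM in GM-CSF(+) cultures, against 11.8, 12.9 and 13.7 FPKM in GM-CSF(-) cultures, with a gap between the groups. The difference of 0.30 (SE 0.07, limma adjusted p = 0.0208) passed in 11 of 15 settings. It missed the threshold without GM-CSF(+) replicate 1 (adjusted p = 0.0661) or 3 (0.0660), or without GM-CSF(-) replicate 1 (0.0518) or 2 (0.0638).

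Slc7a1, or CAT1, carries arginine and lysine. It measured 9.52, 9.44 and 10.3 FPKM in GM-CSF(+) cultures, against 8.54, 7.64 and 8.27 FPKM in GM-CSF(-) cultures. The groups did not overlap, with a gap between the nearest cultures about as wide as the range within each group. The difference of 0.23 (SE 0.07, limma adjusted p = 0.0463) passed in 6 of 15 settings. Leaving out any 1 of the 6 libraries ended the call, with adjusted p between 0.0677 and 0.142.

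Slc3a2 encodes 4F2hc, the heavy chain that Slc7a5 and its relatives need to reach the membrane, and it was by far the most abundant of the 33 genes. It measured 769.8, 757 and 743 FPKM in GM-CSF(+) cultures, against 746, 673 and 622 FPKM in GM-CSF(-) cultures. One untreated culture fell within the treated range, and the difference of 0.16 did not pass (95% interval -0.01 to 0.32, limma adjusted p = 0.161). Without GM-CSF(-) replicate 1, the untreated culture with the highest level, it was 0.23 and passed (adjusted p = 0.0324). Slc38a2, the neutral amino acid carrier SNAT2, averaged 39.0 ± 1.11 FPKM in GM-CSF(+) and 36.4 ± 1.85 FPKM in GM-CSF(-) cultures (SD, n = 3), a difference of 0.10 that did not pass (95% interval -0.02 to 0.22, limma adjusted p = 0.232). Slc1a4, or ASCT1, was at 0.443 FPKM or less in every culture and rested on as few as 607 mapped bases in a library.

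The heavy chain serves several light chains, and their genes moved in both directions. Slc7a11, the cystine importer xCT, measured 196, 197 and 219.9 FPKM in GM-CSF(+) cultures, against 172, 158 and 165 FPKM in GM-CSF(-) cultures (difference 0.30, SE 0.06, limma adjusted p = 0.0129). Slc7a8, or LAT2, which like LAT1 carries neutral amino acids, measured 134, 144 and 139 FPKM in GM-CSF(+) cultures, against 161, 163 and 169.9 FPKM in GM-CSF(-) cultures (difference -0.24, SE 0.04, adjusted p = 0.00894). Slc7a6, a light chain for cationic and neutral amino acids, was lower as well (1.84 ± 0.180 FPKM in GM-CSF(+) and 2.57 ± 0.200 FPKM in GM-CSF(-) cultures, SD, n = 3; difference -0.33, adjusted p = 0.0438). Slc7a11 and Slc7a8 passed in all 15 settings, whereas Slc7a6 passed in 3 of 14 and in none of the 6 that left out a library (adjusted p between 0.0558 and 0.127).

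Slc7a5 made up a small part of the summed light chain FPKM of Slc7a5, Slc7a6, Slc7a7, Slc7a8 and Slc7a11. Its share was 4.64% ± 0.24 in GM-CSF(+) and 3.33% ± 0.17 in GM-CSF(-) cultures (SD, n = 3). Slc7a11 held 56.4% ± 1.58 in GM-CSF(+) and 48.0% ± 1.19 in GM-CSF(-) cultures, while Slc7a8 held 38.4% ± 1.78 in GM-CSF(+) and 47.8% ± 1.37 in GM-CSF(-) cultures. The sum itself was 348, 359 and 379 FPKM in GM-CSF(+) cultures, against 349, 335 and 349 FPKM in GM-CSF(-) cultures, and the groups overlapped. These are shares of RNA and say nothing of the protein at the membrane.

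**Figure D3:**
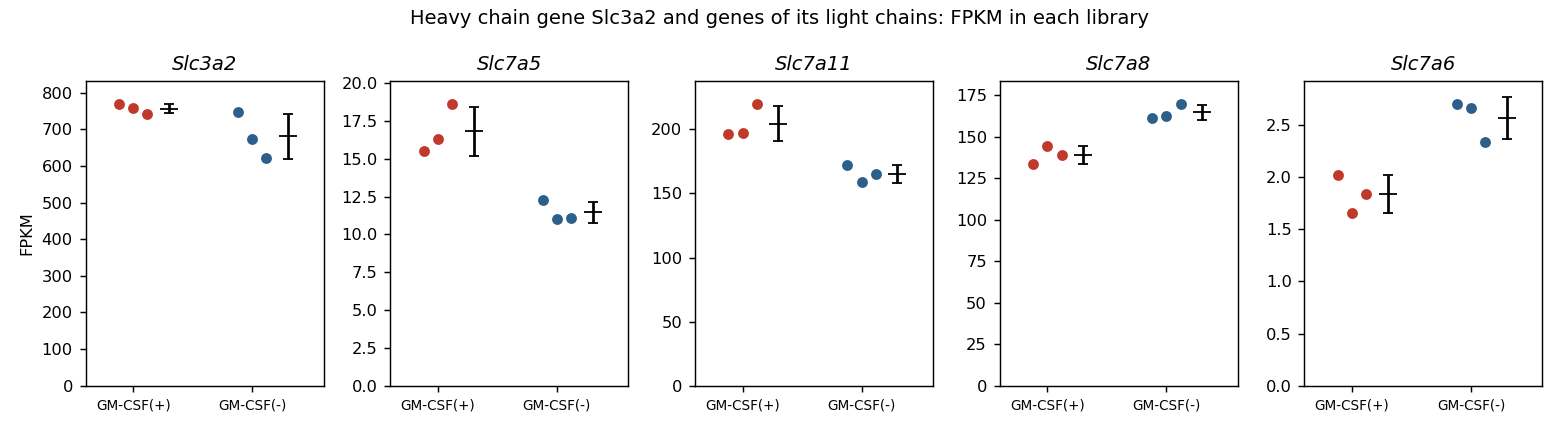
FPKM of the heavy chain gene Slc3a2 and 4 of its light chain genes in each library, with each panel on its own axis that starts at 0; points are cultures in replicate order, and the bar beside them is the mean ± SD of 3. Slc7a5 and Slc7a11 are higher in all GM-CSF(+) cultures, Slc7a8 and Slc7a6 are lower in all of them, and Slc3a2 overlaps.

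Among the synthesis enzymes, Aldh18a1 encodes the enzyme that starts proline synthesis from glutamate. It measured 7.58, 9.24 and 8.49 FPKM in GM-CSF(+) cultures, against 4.61, 4.89 and 5.58 FPKM in GM-CSF(-) cultures, and the lowest treated culture stood well above the highest untreated one. The difference of 0.65 (SE 0.09, limma adjusted p = 0.00420) was the largest rise among the 30 genes, with a ratio of means of 1.68. The tables list 2 transcripts for the gene, of nearly the same length, and the share given to the first ran between 0.134% and 99.96% across the 6 libraries. The sum of both is therefore the value to read, and with the higher transcript alone the difference was 1.91 with a wide error (SE 0.78) and did not pass (adjusted p = 0.164).

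Mthfd2, a mitochondrial enzyme of the folate pathway that passes on one-carbon units from serine, measured 18.8, 19.8 and 19.8 FPKM in GM-CSF(+) cultures, against 15.2, 13.9 and 12.9 FPKM in GM-CSF(-) cultures. The groups were well apart, and the difference of 0.45 (SE 0.07, limma adjusted p = 0.00471) passed in 15 of 15 settings. Shmt2, which feeds serine into the same mitochondrial pathway one step earlier, showed the opposite sign. It measured 6.66, 7.14 and 5.94 FPKM in GM-CSF(+) cultures, against 8.51, 9.32 and 6.85 FPKM in GM-CSF(-) cultures (difference -0.28, 95% interval -0.56 to 0.00, adjusted p = 0.149). GM-CSF(-) replicate 3 was low and fell within the treated range, and without it the difference was -0.39 and passed (adjusted p = 0.0435). Without GM-CSF(-) replicate 2 it was -0.19 (adjusted p = 0.354), and with the highest transcript alone it was -0.03 (SE 0.56, adjusted p = 0.981). The share given to that transcript ran between 18.5% and 99.9% across libraries.

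Asns makes asparagine from aspartate and glutamine and is a classic target of Atf4. It measured 6.002, 6.60 and 8.33 FPKM in GM-CSF(+) cultures, against 5.51, 4.97 and 3.92 FPKM in GM-CSF(-) cultures. The groups did not overlap, but both were spread widely, and the difference of 0.46 (SE 0.14, 95% interval 0.11 to 0.81) did not pass after adjustment (limma adjusted p = 0.0692). With quantile normalization it was 0.53 and passed narrowly (adjusted p = 0.0497).

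The 3 enzymes that make serine from a glycolytic intermediate were not higher. Phgdh, the first enzyme, measured 0.638, 0.749 and 0.566 FPKM in GM-CSF(+) cultures, against 1.77, 1.99 and 0.824 FPKM in GM-CSF(-) cultures. The groups did not overlap, although GM-CSF(-) replicate 3 lay close to the treated cultures, and the difference of -0.58 did not pass (95% interval -1.06 to -0.11, limma adjusted p = 0.0841). Phgdh rested on as few as 868 mapped bases in a library and entered the test only through its GM-CSF(-) level, so the outcome of its test depends on which untreated cultures are kept. It was -0.80 (adjusted p = 0.00873) without GM-CSF(-) replicate 3 and fell under the filter without replicate 1 or 2 of that group.

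Psat1, the second enzyme, averaged 3.35 ± 0.764 FPKM in GM-CSF(+) and 3.26 ± 0.335 FPKM in GM-CSF(-) cultures (SD, n = 3), a difference of 0.02 (95% interval -0.31 to 0.35, limma adjusted p = 0.950). Psph, the last enzyme, averaged 3.23 ± 0.707 FPKM in GM-CSF(+) and 4.15 ± 0.475 FPKM in GM-CSF(-) cultures, a difference of -0.29 that did not pass (95% interval -0.64 to 0.05, adjusted p = 0.199). Pycr1, which completes proline synthesis after Aldh18a1, was at 0.749, 0.907 and 0.964 FPKM in GM-CSF(+) cultures, against 0.943, 0.802 and 1.13 FPKM in GM-CSF(-) cultures, and the groups overlapped.

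**Figure D4:**
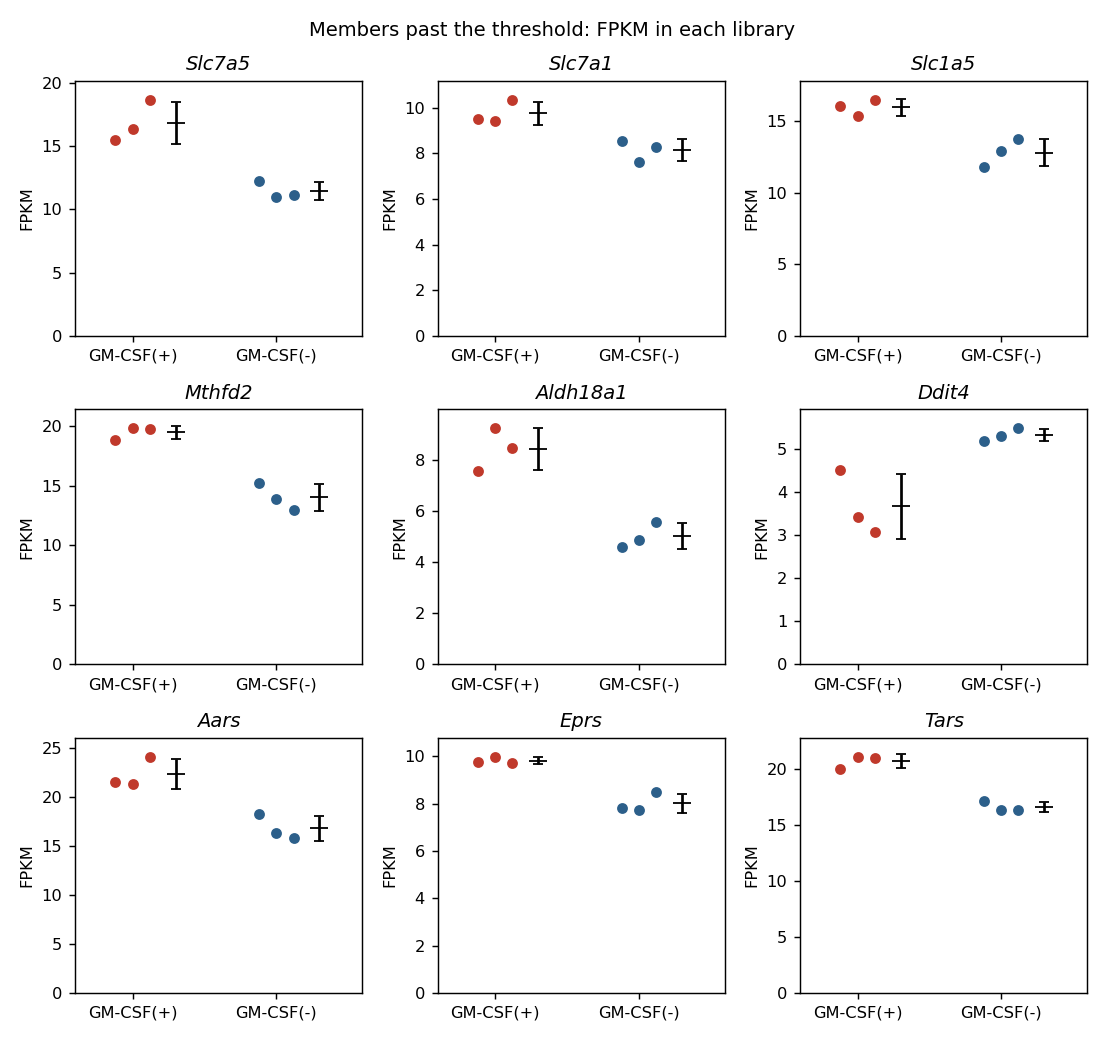
FPKM in each library of the 9 genes past the threshold, each panel on its own axis that starts at 0; points are cultures in replicate order and the bar beside them is the mean ± SD of 3. In 8 panels every GM-CSF(+) culture lies above every GM-CSF(-) culture, and for Ddit4 every GM-CSF(+) culture lies below.

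Among the tRNA synthetases, Tars, which charges threonine, measured 20.0, 21.1 and 21.004 FPKM in GM-CSF(+) cultures, against 17.1, 16.3 and 16.4 FPKM in GM-CSF(-) cultures. Both groups were tight and far apart relative to their spread, and the difference of 0.30 (SE 0.05, limma adjusted p = 0.00522) passed in 15 of 15 settings. Its promoter, shown above, carries the core closest to the start of the 6.

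Aars, which charges alanine, measured 21.6, 21.4 and 24.1 FPKM in GM-CSF(+) cultures, against 18.3, 16.4 and 15.9 FPKM in GM-CSF(-) cultures, without overlap. The difference of 0.39 (SE 0.07, limma adjusted p = 0.0110) was the largest among the synthetases and passed in 15 of 15 settings. Annotated exons of Aars share 1326 bases on the same strand with Exosc6, an exosome subunit gene, and reads there could be assigned to either. Exosc6 itself measured 4.21, 5.85 and 3.42 FPKM in GM-CSF(+) cultures, against 3.17, 5.67 and 4.73 FPKM in GM-CSF(-) cultures, and the groups overlapped (adjusted p = 0.993).

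Eprs, a fused enzyme that charges both glutamate and proline, measured 9.74, 9.98 and 9.70 FPKM in GM-CSF(+) cultures, against 7.83, 7.74 and 8.48 FPKM in GM-CSF(-) cultures, again without overlap. The difference of 0.26 (SE 0.06, limma adjusted p = 0.0186) passed in 11 of 15 settings. It missed the threshold without GM-CSF(+) replicate 1 (adjusted p = 0.0594) or 2 (0.0602), or without GM-CSF(-) replicate 1 (0.0632) or 2 (0.0715).

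The other 10 synthetases did not pass. Nars, for asparagine, was the most abundant, at 52.3, 47.4 and 53.8 FPKM in GM-CSF(+) cultures, against 49.7, 47.0 and 50.4 FPKM in GM-CSF(-) cultures, and the groups overlapped in part (difference 0.06, 95% interval -0.08 to 0.20, limma adjusted p = 0.542). With the highest transcript alone the difference was 0.30 (SE 0.22, adjusted p = 0.419). Gars, for glycine, carries the C/EBP-ATF core at 30 bases before its start. It averaged 31.4 ± 2.51 FPKM in GM-CSF(+) and 31.1 ± 1.72 FPKM in GM-CSF(-) cultures (difference 0.01, 95% interval -0.16 to 0.18, adjusted p = 0.938). Positive differences that did not pass were 0.14 for Yars (tyrosine), 0.10 for Cars (cysteine), 0.06 for Lars (leucine), 0.04 for Mars (methionine) and 0.03 for Wars (tryptophan). Negative ones were -0.01 for Sars (serine), -0.07 for Vars (valine) and -0.14 for Iars (isoleucine). The upper ends of the 95% intervals were 0.36 for Yars, 0.27 for Wars and 0.26 for Cars. A difference of the size seen for Aars lies outside all 3. That of Tars (0.30) lies within the Yars interval, and that of Eprs (0.26) within those of Yars and Wars. Whether one synthetase differed from another in its response was not tested.

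Levels differed more between synthetases than between groups. Nars averaged 49.0 ± 1.81 FPKM in GM-CSF(-) cultures, followed by Gars at 31.1 ± 1.72 and Lars at 24.2 ± 1.40, each step larger than the SD (n = 3). Cars (19.8 ± 1.32) came next. From Sars (17.3 ± 1.19) through Aars (16.8 ± 1.27), Tars (16.6 ± 0.448) and Yars (15.6 ± 1.59) to Wars (14.6 ± 1.44), neighbours in the order differed by less than the larger of their SDs. Mars (12.6 ± 0.705) followed, and Eprs (8.02 ± 0.402), Vars (5.53 ± 0.397) and Iars (4.48 ± 0.576) were the lowest. The genes that passed thus came from the middle and lower levels, with Tars at 20.7 ± 0.590, Aars at 22.4 ± 1.52 and Eprs at 9.81 ± 0.148 FPKM in GM-CSF(+) cultures.

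Among the stress and growth regulators, Ddit4, or REDD1, is an inhibitor of mTORC1 induced by stress. It measured 4.53, 3.43 and 3.08 FPKM in GM-CSF(+) cultures, against 5.20, 5.31 and 5.48 FPKM in GM-CSF(-) cultures, and every treated culture was lower. The difference was -0.45 (SE 0.12, limma adjusted p = 0.0387) but passed in only 4 of 14 settings. Both other scalings of the libraries ended the call (adjusted p = 0.0684 with median-of-ratios factors and 0.0885 with quantile normalization), as did leaving out any single library except GM-CSF(+) replicate 1 (adjusted p between 0.0875 and 0.106).

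Sesn2, a leucine sensor that restrains mTORC1 when leucine is low, measured 34.2, 31.4 and 32.7 FPKM in GM-CSF(+) cultures, against 30.4, 29.4 and 28.8 FPKM in GM-CSF(-) cultures. The groups did not overlap, but the difference of 0.14 (95% interval 0.03 to 0.26, limma adjusted p = 0.0836) passed only with median-of-ratios factors (0.20, adjusted p = 0.0497). Eif4ebp1, a repressor of translation that mTORC1 switches off, measured 59.8, 69.0 and 63.9 FPKM in GM-CSF(+) cultures, against 58.6, 65.8 and 66.2 FPKM in GM-CSF(-) cultures, and the groups overlapped (difference 0.02, 95% interval -0.16 to 0.19, adjusted p = 0.911).

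Atf5, a transcription factor related to Atf4, averaged 8.97 ± 1.33 FPKM in GM-CSF(+) and 7.02 ± 1.55 FPKM in GM-CSF(-) cultures (SD, n = 3; difference 0.32, 95% interval -0.07 to 0.72, limma adjusted p = 0.224). With the highest transcript alone its difference was 0.02 (SE 0.19, adjusted p = 0.952), but the share given to that transcript ran between 37.0% and 99.9% across libraries. Trib3, a pseudokinase that Atf4 induces and that restrains Atf4 in turn, averaged 5.03 ± 0.704 FPKM in GM-CSF(+) and 4.97 ± 1.06 FPKM in GM-CSF(-) cultures (difference 0.02, 95% interval -0.34 to 0.38, adjusted p = 0.944). Chac1, which breaks down glutathione and responds strongly to Atf4, was at 0.739, 0.716 and 0.642 FPKM in GM-CSF(+) cultures, against 1.04, 1.40 and 1.15 FPKM in GM-CSF(-) cultures. All treated cultures were lower, and when no filter was applied the difference was -0.37 (limma adjusted p = 0.0437), on as few as 827 mapped bases in a library.

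Other genes of the same pathways were followed in 6 lists, which held 99 tested genes. Of these, 8 were higher (8.08%) and 13 were lower, with a median difference of -0.06. Over all genes tested, limma gave 7.68% higher and 14.2% lower, or 11.2% and 23.2% at an unadjusted p under 0.05. The median over all genes was -0.05, and the counts of each list below are to be read beside these shares. None of the 10 other cytosolic synthetases and scaffold proteins was higher and 1 was lower, and none of 15 tested mitochondrial synthetases passed in either direction. At an unadjusted p under 0.05, limma gave 0 higher and 1 lower among the 10, and 0 higher and 2 lower among the 15. The one that was lower, Qars for glutamine, measured 15.0, 15.0 and 17.9 FPKM in GM-CSF(+) cultures, against 19.7, 19.8 and 19.7 FPKM in GM-CSF(-) cultures (difference -0.29, SE 0.07, limma adjusted p = 0.0330). It passed in 6 of 15 settings and, with a library left out, only without GM-CSF(+) replicate 3 (adjusted p between 0.0823 and 0.0998 without any other). With the highest of its transcripts alone, the Qars difference was -0.03 (adjusted p = 0.835). Lars2, listed as the most abundant mitochondrial synthetase gene, varied from culture to culture in both groups, with 193, 115 and 150.4 FPKM in GM-CSF(+) and 159, 228 and 160.3 FPKM in GM-CSF(-) cultures (difference -0.26, SE 0.22, adjusted p = 0.450). The next, Hars2, had a mean of only 6.51 FPKM over all libraries. Whether the whole Lars2 signal came from its mRNA was not tested.

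Of 15 other tested amino acid transporters, 2 were higher and 5 were lower. Those with the largest differences were Slc38a1, a glutamine carrier, at -0.39 (limma adjusted p = 0.00524), Slc7a6 at -0.33 and Slc38a9, a lysosomal arginine sensor, at -0.33 (adjusted p = 0.0443). The Slc38a9 call was lost without any 1 library other than GM-CSF(+) replicate 2 (adjusted p between 0.0827 and 0.128). Slc38a1 measured 14.3, 13.6 and 13.7 FPKM in GM-CSF(+) cultures, against 19.3, 19.1 and 17.1 FPKM in GM-CSF(-) cultures, and passed in 15 of 15 settings. Slc36a4, a carrier of neutral amino acids, was higher (difference 0.31, adjusted p = 0.00817), with 17.2, 17.3 and 17.3 FPKM in GM-CSF(+) and 14.6, 13.6 and 13.1 FPKM in GM-CSF(-) cultures. The glutamine carriers Slc1a5 and Slc38a1 therefore differed in sign in the same cultures, although Slc1a5, the higher one, passed in only 11 of 15 settings. The neutral amino acid carrier Slc38a2 did not pass (difference 0.10, limma adjusted p = 0.232).

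Of 20 other tested enzymes of amino acid and one-carbon metabolism, 3 were higher and 1 was lower. Arg2, a mitochondrial arginase that turns arginine into ornithine and urea, measured 170.5, 168 and 156 FPKM in GM-CSF(+) cultures, against 114, 117 and 114 FPKM in GM-CSF(-) cultures. It was far more abundant than any of the synthesis enzymes above, the groups were well apart, and the difference of 0.51 (SE 0.05, limma adjusted p = 0.000539) passed in 15 of 15 settings. Ahcy, which clears S-adenosylhomocysteine, averaged 5.75 ± 0.4004 FPKM in GM-CSF(+) and 3.74 ± 0.702 FPKM in GM-CSF(-) cultures (SD, n = 3; difference 0.52, adjusted p = 0.0217). It missed the threshold without GM-CSF(+) replicate 2 (adjusted p = 0.0564) or 3 (0.0697) or GM-CSF(-) replicate 1 (0.0691) or 3 (0.0595). Bcat2, which starts the breakdown of branched-chain amino acids, was lower, at 22.9 ± 1.34 FPKM in GM-CSF(+) and 29.7 ± 2.02 FPKM in GM-CSF(-) cultures (difference -0.36, adjusted p = 0.0112).

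Of 17 regulators of the integrated stress response, the pathway of Gcn2 and its sister kinases, 3 were higher and 2 were lower. Atf4 itself measured 356, 359 and 331 FPKM in GM-CSF(+) cultures, against 352, 354 and 325 FPKM in GM-CSF(-) cultures (difference 0.02, 95% interval -0.10 to 0.15, limma adjusted p = 0.816). Its RNA was abundant and overlapped between the groups, and since Atf4 is controlled largely at translation, RNA levels do not report its protein. Nupr1, a small stress-induced chromatin protein, measured 5.82, 4.43 and 5.80 FPKM in GM-CSF(+) cultures, against 0.995, 1.40 and 0.0927 FPKM in GM-CSF(-) cultures (difference 1.86, SE 0.29, adjusted p = 0.00535). It passed the filter only through its level in GM-CSF(+) cultures and rested on as few as 53 mapped bases in a library, and its difference ran between 1.53 and 2.99 over the alternatives. With no filter its adjusted p was 0.0163.

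Cebpb, a C/EBP protein that can pair with Atf4, measured 252, 247 and 176 FPKM in GM-CSF(+) cultures, against 146, 145 and 135 FPKM in GM-CSF(-) cultures (difference 0.64, SE 0.14, limma adjusted p = 0.0184). GM-CSF(+) replicate 3 was lower than the other treated cultures but above all untreated ones, and the call was lost without GM-CSF(+) replicate 1 (adjusted p = 0.0549) or 2 (0.0580) or GM-CSF(-) replicate 2 (0.0540) or 3 (0.0609). Atf3, an early stress-response factor, was higher by 0.39 (adjusted p = 0.0386), and Eif2ak3, the kinase PERK of the endoplasmic reticulum, was lower (difference -0.34, adjusted p = 0.0121), as was Sesn1, a relative of Sesn2 (-0.36, adjusted p = 0.0147). Atf3 was lost without any 1 library other than GM-CSF(+) replicate 3 (adjusted p between 0.0557 and 0.107), and Sesn1 without GM-CSF(+) replicate 1 (0.0525) or GM-CSF(-) replicate 2 (0.0532) or 3 (0.0506). Of 22 genes of the mTORC1 pathway and Myc, none was higher and 4 were lower. At an unadjusted p under 0.05 limma gave 0 of the 22 higher and 8 lower, where 23.2% of all genes were lower. Of the 4 past the adjusted threshold, the largest differences were those of Max, the partner of Myc (-0.37, adjusted p = 0.00901), Lamtor4, which anchors mTORC1 at the lysosome (-0.34, adjusted p = 0.0395), and Eif4ebp2, a relative of Eif4ebp1 (-0.34, adjusted p = 0.0151). Lamtor4 was lost without any 1 library other than GM-CSF(-) replicate 1 (adjusted p between 0.0730 and 0.121), and Eif4ebp2 without GM-CSF(+) replicate 2 (0.0504). Max was lost with the highest transcript alone (adjusted p = 0.347).

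**Figure D5:**
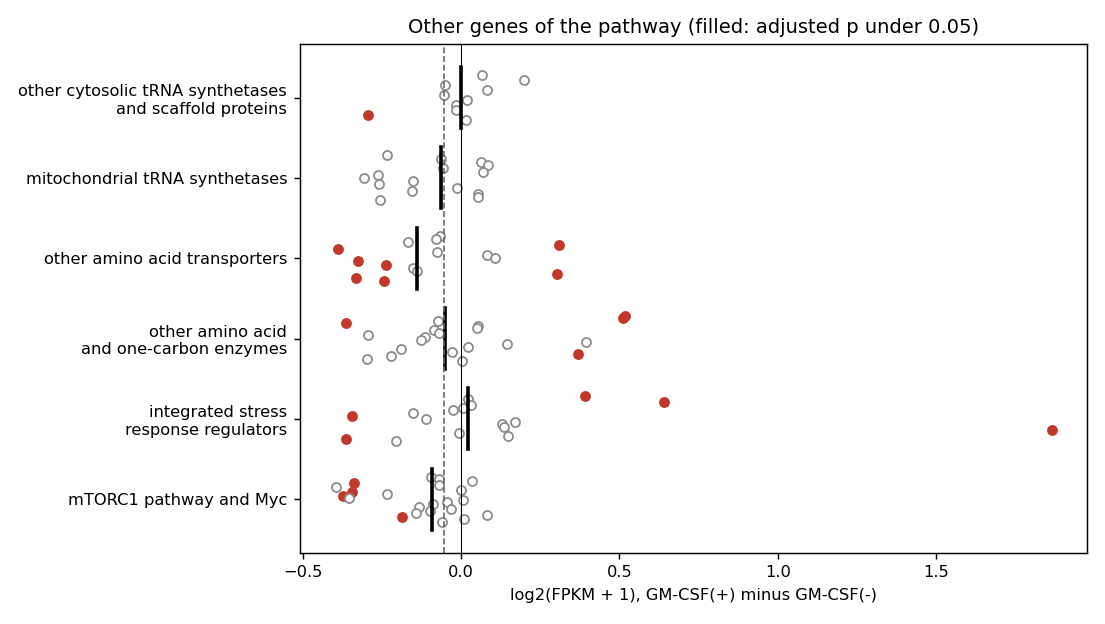
Difference in log2(FPKM + 1), GM-CSF(+) minus GM-CSF(-), for the 99 tested genes of 6 further lists; each point is a gene, filled where it passed the threshold, with points offset vertically for legibility, the thick bar is the list's median and the dashed line the median of all genes tested (-0.05). Medians lie between -0.14 and 0.02, and the single point far to the right is Nupr1 at 1.86.

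The libraries rested on 0.820 to 1.32 gigabases of mapped sequence in GM-CSF(+) and 0.917 to 0.974 in GM-CSF(-) cultures, and 9849 to 9944 genes in GM-CSF(+) and 10051 to 10132 in GM-CSF(-) cultures reached 1 FPKM. Among eosinophil markers, Siglecf (listed as Siglec5), Ccr3 and Prg2 were present and did not pass the test, while Epx, Il5ra and Alox15 were lower, and the 6 summed to 562 to 647 FPKM in GM-CSF(+) and 905 to 1047 FPKM in GM-CSF(-) cultures. Markers of other cells were also present and mostly lower in GM-CSF(+) cultures. All 5 tested B and plasma cell markers were lower, although Mzb1 passed the filter only through its level in GM-CSF(-) cultures (6 summed to 16.1 to 17.5 FPKM in GM-CSF(+) and 30.7 to 38.0 FPKM in GM-CSF(-) cultures), as were all 4 tested T cell markers (6 summed to 14.6 to 17.1 FPKM in GM-CSF(+) and 26.9 to 28.0 FPKM in GM-CSF(-) cultures). Of 7 tested epithelial markers, 3 were lower (8 summed to 53.2 to 66.4 FPKM in GM-CSF(+) and 80.4 to 85.3 FPKM in GM-CSF(-) cultures).

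Of 4 tested macrophage and dendritic cell markers, 3 were lower. The 7 listed summed to 456 to 471 FPKM in GM-CSF(+) and 488 to 517 FPKM in GM-CSF(-) cultures, most of it Itgax, which eosinophils may also express. Of 4 tested neutrophil markers, 2 were lower and 1, Cxcr2, was higher, with sums of 1140 to 1167 FPKM in GM-CSF(+) and 1364 to 1481 FPKM in GM-CSF(-) cultures, most of it Retnlg. The 5 mast cell markers summed to 7.30 to 11.0 FPKM in GM-CSF(+) and 7.79 to 20.3 FPKM in GM-CSF(-) cultures, with 1 of 3 tested lower and Tpsb2 at 0 in every library. Fewer cells of a type and less RNA per cell cannot be told apart in bulk RNA. The part of other cells in the values of the 33 genes was not tested.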

How the data were processed

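Polyadenylated RNA of 3 GM-CSF(+) and 3 GM-CSF(-) cultures was sequenced from Illumina TruSeq Stranded mRNA libraries, per the labels' protocols. Build mm10 and the tools Cufflinks, TopHat, TopHat2 and bcl2fastq 1.8.4 appear in the submitters' processing notes, without role or order. The authors deposited 1 table per library with FPKM, coverage and length for 30374 transcripts, per the file headers. A count test was not possible, as no file gives reads per gene. The deposited coverage signal divided by FPKM gave the mapped gigabases, and coverage times length gave the mapped bases of a gene; these cover sampling depth only.

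FPKM were summed per symbol, and 10106 genes averaging 1 FPKM or more were tested on log2(FPKM + 1). Groups were compared with limma 3.58.1 under R 4.3.3 (empirical Bayes with trend, two-sided, Benjamini-Hochberg adjustment over all genes tested, threshold 0.05). A check on simulated data had a pass mark only for a log2 difference of 1, larger than any among the 33 genes in the main fit. Fold ratios are ratios of group mean FPKM. There were 15 alternatives, whose effect is given at the end, and settings that drop a gene from the test are left out of its count. Of 199 entries in the lists, 197 matched by symbol, 1 by a synonym and 1 was not matched. Promoters were matched by symbol in the RefSeq table (GRCm38.p6), which is credited for the sequences.

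The 33 genes and the lists were chosen with earlier results of these data known. Values by library are given for genes past the threshold and, where fewer than 2 of a role passed, for its most abundant 2; of each other list, up to 3 genes with the largest difference past the threshold are named, or the most abundant. One gene that this rule takes is not reported here. Slc3a2, Asns, Phgdh, Chac1, Shmt2, Pycr1, Nars, Atf4, the light chain genes, Slc36a4 and the promoters of Asns, Chac1 and Aldh18a1 were added after their values were seen.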

Additional observations from a re-analysis of the deposited data

How the results depend on the processing

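Over all genes, 776 were higher and 1436 lower (35.1% of calls higher), against 1008 and 1040 (49.2%) with median-of-ratios factors and 950 and 1111 (46.1%) with quantile normalization. Of the 33 genes, 8 were higher and 1 lower, against 9 and 0 under both of these, 6 and 0 with the highest transcript of each gene, 8 and 0 when genes had to average 5 FPKM, and 7 and 0 with the replicate number as a block; the lost lower call was Ddit4, a regulator, and so 0 regulators were lower in these 5 settings. With 1 library left out at a time, 627 to 715 of all genes were higher and 888 to 1117 lower, and of the 33, 5 to 7 were higher and 0 to 2 lower: transporters 1 to 2 higher, synthesis enzymes 2 higher and 0 to 2 lower, regulators 0 to 1 lower, synthetases 2 to 3 higher. Median-of-ratios factors called 1 regulator higher, and the highest transcript left 1 synthesis enzyme higher. With no filter, 7 of the 33 were higher and 1 was lower, but the lower one was Chac1 (limma adjusted p = 0.0437). Ddit4 (adjusted p = 0.0860) and Slc7a1 (0.0774) missed the threshold in that setting.

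Of the further lists, the lower call among other cytosolic synthetases fell to 0 with no filter, median-of-ratios factors, the highest transcript and the block, and was 0 to 1 with a library left out. Mitochondrial synthetases had 1 lower without the trend and 0 to 1 with a library left out. Other transporters had 3 lower with no filter, at 5 FPKM, with quantile normalization and the block, 2 with median-of-ratios factors and the highest transcript, and 2 to 3 with a library left out. Other enzymes had 1 higher with no filter and at 5 FPKM (1 to 3 with a library left out) and 2 lower without the trend. Stress response regulators had 5 higher with median-of-ratios factors and 1 lower with the highest transcript (1 to 3 higher and 1 to 2 lower with a library left out). The mTORC1 list had 2 lower with no filter, median-of-ratios factors and without the trend, 1 with the highest transcript, and 1 to 4 with a library left out. The cause of these shifts was not tested.

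No called gene changed sign. Among genes near 0, leaving out a library gave differences of -0.12 to 0.13 for Psat1, -0.096 to 0.16 for Trib3, -0.041 to 0.065 for Eif4ebp1, -0.038 to 0.073 for Gars, -0.011 to 0.086 for Mars, -0.066 to 0.020 for Sars and -0.052 to 0.097 for Wars. Sars was 0.047 with median-of-ratios factors, 0.021 with quantile normalization and 0.0058 with the highest transcript, and Wars was -0.034 with the highest transcript. Over all genes, cultures with the same replicate number did not deviate together (correlation of deviations -0.032 to 0.054). The number was therefore not taken as a pairing, though this does not settle the matter for single genes. With the block, 723 of all genes were higher and 1273 lower. Slc7a1 and Ddit4 then missed the threshold (limma adjusted p = 0.0654 and 0.0700), while the SE of Atf3 was 0.04 against 0.10. The alternatives all ran. Depth limits Slc1a4, Pycr1, Chac1 and Phgdh most, which lie near or under 1 FPKM.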
